A study of Mus musculus with 6 samples.

Results

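The genes described here build ribosomes in the nucleolus, and were followed in mouse uteri after a single injection of estradiol. A list of 41 symbols was set by function, with earlier results of these data known. In it, 36 were found among the 8251 genes named on the array, each read by its brightest probe set. Of these 36, 35 reached the detection floor on at least 1 array, as did 6552 genes in all. The floor is the 40th percentile of all scaled signals, 142.8, and a gene that reaches it on any array is called measured. Wdr12 stayed below it on every array, with signals from 18.9 in vehicle to 134 at 6 h. Dkc1, Nop14, Pwp2, Nob1 and Npm3 were not found among the named probe sets and were not analysed here.

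The study profiled whole uteri of C57BL/6 females aged 10 to 11 weeks on Affymetrix U74Av2 arrays. Every mouse, whether given estradiol or vehicle, had been ovariectomised 7 days before it was killed. The groups were vehicle, killed 24 h after its injection, and estradiol at 0.05 µg per mouse under the skin, killed 1, 3, 6, 12 or 24 h later. Uteri were pooled before RNA was extracted and each group is 1 array, so no difference below could be tested against a spread between replicates. The comparisons ask which genes differ from vehicle at each time. In time since injection, vehicle matches the 24 h array alone, and at other times the injection and the hormone cannot be told apart.

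Ribosome production starts when RNA polymerase I copies the ribosomal DNA into a long precursor. Small nucleolar ribonucleoproteins (snoRNPs) of the box C/D class direct methylation of its riboses, and those of the box H/ACA class direct pseudouridylation. Other factors cut the precursor and fold it with ribosomal proteins into the small and the large subunit. Growing cells depend on this pathway, many of its genes are known targets of the transcription factor Myc, and the uterus grows in response to estrogen.

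Promoter sequences are shown because the members had their highest signal at the same times. RefSeq promoter windows (GRCm38.p6), from 250 bases before to 50 bases after the start of a gene, were matched by symbol for 37 of the 41 genes and 31 of the 35 measured ones. The E-box CACGTG, the best known binding site of Myc and its partner Max, reads the same on both strands and lay in the windows of 7 of 31 members (22.6%) and 12.0% of measured genes. Each is printed with up to 10 bases on either side and the E-box in capitals.
Grwd1, chr7:45830740-45830765, - strand: gccggagtcgCACGTGtgaaaccgga
Imp4, chr1:34439698-34439723, + strand: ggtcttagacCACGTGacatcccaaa
Ltv1, chr10:13193094-13193119, - strand: cctgtggaccCACGTGtggagctgcc
Mybbp1a, chr11:72441357-72441376, + strand: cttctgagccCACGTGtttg
Nop2, chr6:125131813-125131838, + strand: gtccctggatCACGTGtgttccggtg
Pes1, chr11:3963967-3963992, + strand: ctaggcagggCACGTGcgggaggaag
Tsr1, chr11:74898094-74898119, + strand: acttggtgcaCACGTGgactgcagaa
In Grwd1, Ltv1, Mybbp1a, Pes1 and Tsr1 the E-box begins between base 3 and base 41 counted from the start of the gene on. An E-box in those 50 bases was found in 5 of 31 members (16.1%) and in 90 of 5249 measured genes (1.71%), a split of the window made after the matches had been seen. The E-boxes of Imp4 and Nop2 begin 121 and 60 bases before the start.

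The 7 genes with an E-box had a median log2 ratio to vehicle of 1.22 at 6 h, next to 1.20 for the 24 members without one. No window of a measured member held the consensus estrogen response element on either strand, which 0.0191% of measured genes held. Another 4 motifs were searched on both strands after the data had been seen. The ETS-type motif CCGGAAG was in 15 of 31 members (48.4%) and 19.3% of measured genes, and its members had a median log2 ratio of 1.32 at 6 h, next to 0.94 without it. CACGCG, which differs from the E-box in a single letter, was in 12 of 31 members (38.7%) and 19.5% of measured genes, with medians of 0.89 with it and 1.34 without. CCAAT was in 10 of 31 members (32.3%) and 42.4% of measured genes, with medians of 0.87 and 1.34 in the same order. TATAAA was in 2 of 31 members (6.45%) and 10.9% of measured genes, with medians of 1.24 and 1.22. A match is a run of letters and not a measured binding site.

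The 250 bases before the start are printed for Nop2, which has both the E-box and the ETS-type motif there, and for Ddx21 and Nop56, the members furthest above vehicle at 6 h, which have neither. Capitals mark the motifs.
Nop2 promoter, chr6:125131633-125131882, + strand: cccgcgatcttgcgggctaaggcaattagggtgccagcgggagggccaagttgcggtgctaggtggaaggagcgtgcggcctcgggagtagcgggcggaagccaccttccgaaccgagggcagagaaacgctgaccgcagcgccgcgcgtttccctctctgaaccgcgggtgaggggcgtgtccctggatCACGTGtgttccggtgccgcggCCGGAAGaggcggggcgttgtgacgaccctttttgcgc
Ddx21 promoter, chr10:62602299-62602548, - strand: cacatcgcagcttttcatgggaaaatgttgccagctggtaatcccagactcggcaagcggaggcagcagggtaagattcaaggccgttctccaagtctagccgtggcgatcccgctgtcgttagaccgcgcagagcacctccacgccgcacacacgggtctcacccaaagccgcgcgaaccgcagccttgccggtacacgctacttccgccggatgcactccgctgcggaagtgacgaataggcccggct
Nop56 promoter, chr2:130274162-130274411, + strand: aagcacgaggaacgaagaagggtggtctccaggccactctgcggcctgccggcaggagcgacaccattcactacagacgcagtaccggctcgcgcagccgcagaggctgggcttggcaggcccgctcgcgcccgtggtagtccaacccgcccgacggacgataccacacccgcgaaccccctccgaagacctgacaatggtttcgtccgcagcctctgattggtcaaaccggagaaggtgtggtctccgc
Bases G and C made up 67.6% of the stretch of Nop2, 61.6% of that of Ddx21 and 65.2% of that of Nop56.

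The array labelled 3 h lacked many uterine markers, against its label, and is therefore given apart. Its Spearman correlation with the other 5 arrays was 0.843 to 0.857 over probe sets, and those 5 correlated with each other at 0.929 to 0.968. Of 15 epithelial markers found, 3 reached the floor on it, against 12 to 14 elsewhere, and Krt8, Krt18, Krt19 and Epcam were below it. Ltf, also on that list, went the other way, at 11157 against 1413 to 3437. Of 14 stromal markers, 8 reached the floor, against 12 or 13 elsewhere, with Hoxa10, Hoxa11 and Wt1 below it. The summed stromal signal, 77784, nevertheless lay within the 41846 to 91462 of the others, and the collagen genes Col1a1, Col1a2 and Col3a1 were above vehicle, Col1a2 at 20282 against 4359. The summed signal of 8 smooth muscle markers was 4445, against 30218 to 56638 elsewhere, and that of 11 leukocyte markers 29431, against 5694 to 8499. On the 5 other arrays the keratins, Hoxa10, Hoxa11, Wt1 and the muscle gene Cnn1 were at or above the floor.

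Ribosome biogenesis genes had much higher signal at 6 and 12 h of estradiol than after vehicle, and signal near that of vehicle at 1 and 24 h. At 6 h, 19 of the 35 measured members (54.3%) were at least 2-fold above vehicle and none was 2-fold below, where 6.32% of all measured genes were higher and 8.35% lower by that fold. The members' median log2 ratio was 1.22, and that of all measured genes 0.00. At 12 h, 16 members (45.7%) were higher and none lower, beside 6.17% and 6.93% of all genes, and the members' median was 0.92. At 24 h Nhp2 was the only member past 2-fold, on the higher side, beside 3.37% higher and 3.53% lower of all genes, and the median was 0.11. At 1 h no member was 2-fold away in either direction, beside 0.855% higher and 0.351% lower of all genes, and log2 ratios ran from -0.75 in Ebna1bp2 to 0.74 in Mybbp1a.

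Mphosph10 counts as measured through arrays other than vehicle. Over the 34 members at or above the floor in vehicle, 19 were 2-fold higher at 6 h, 15 at 12 h and 1 at 24 h. In pooled whole tissue, fewer cells of a type and less RNA per cell cannot be told apart.

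**Figure D1:**
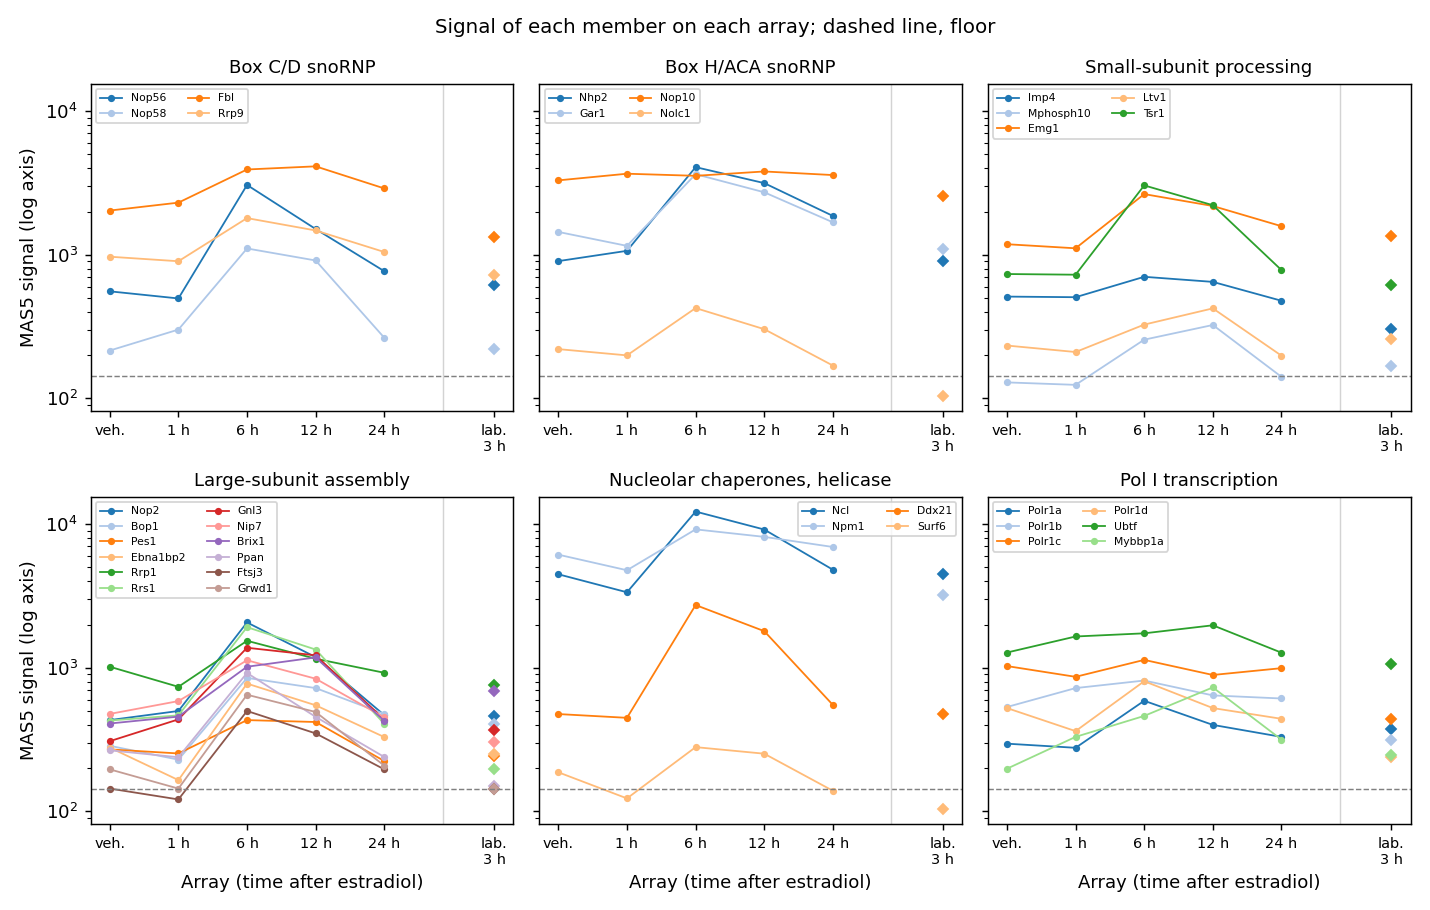
MAS5 signal (log axis) of the 35 measured members on each array, in a panel for each role group; joined points are vehicle, 1, 6, 12 and 24 h, diamonds the array labelled 3 h, and the dashed line the floor of 142.8. In 28 genes the highest joined point is that at 6 h, and in 7 that at 12 h.

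The box C/D snoRNP genes comprise the core proteins Nop56 and Nop58, the methyltransferase Fbl (fibrillarin) and Rrp9, a protein of the snoRNP that acts in early cleavage. The signal of Nop56 was 556 in vehicle, then 496, 3063, 1511 and 768 on the 1, 6, 12 and 24 h arrays, with 620 on that labelled 3 h. It was 5.50-fold above vehicle at 6 h and 2.72-fold at 12 h, so the 6 h array stood well above all others. At 24 h it was still 1.38-fold above vehicle.

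Nop58 binds Nop56 in the same particle. Its signal was 215 after vehicle and 301, 1106, 912 and 264 after 1, 6, 12 and 24 h of estradiol, and 221 on the array labelled 3 h. The 6 and 12 h values, 5.15-fold and 4.25-fold above vehicle, lay close together and far from the other 4. The ending of its probe set name, _f_at, marks probes that may match several similar sequences, so other transcripts may add to it.

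Fbl had a signal of 2032 in vehicle, then 2307, 3927, 4130 and 2898 on the 1, 6, 12 and 24 h arrays, with 1339 on that labelled 3 h. Its folds, 1.93 at 6 h and 2.03 at 12 h, lie on either side of the 2-fold line with almost the same signal. Rrp9 had 969 after vehicle and 901, 1800, 1476 and 1045 after 1, 6, 12 and 24 h of estradiol, and 717 on the array labelled 3 h. It was highest at 6 h, at 1.86-fold, and never reached 2-fold.

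Among the box H/ACA genes, the core protein Nhp2 was the member past 2-fold at all of 6, 12 and 24 h. Its signal was 903 in vehicle, then 1065, 4078, 3156 and 1864 on the 1, 6, 12 and 24 h arrays, with 907 on that labelled 3 h. It was 4.52-fold, 3.50-fold and 2.07-fold above vehicle in turn, and 48.1% of its log2 ratio at 6 h was left at 24 h. The 24 h value did not pass 2-fold against other references, with a log2 ratio of 0.81 against the 1 h array and 0.93 against the mean of both. Gar1, another core protein, had 1442 after vehicle and 1153, 3642, 2724 and 1683 after 1, 6, 12 and 24 h of estradiol, and 1097 on the array labelled 3 h, so that it was 2.53-fold higher at 6 h and 1.89-fold at 12 h.

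Nop10, a small protein of the same core, differed little between arrays. Its signal was 3298 in vehicle, then 3669, 3548, 3804 and 3591 on the 1, 6, 12 and 24 h arrays, with 2562 on that labelled 3 h. Its log2 ratio at 6 h, 0.11, was the lowest of the 35 members. The array signals of genes for a single complex thus spanned 1.08-fold to 4.52-fold at that time. Nolc1, which escorts snoRNPs in the nucleolus, was 1.93-fold above vehicle at 6 h and 1.37-fold at 12 h, and 1.30-fold below it at 24 h.

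Of the small-subunit factors, Tsr1, which acts in late maturation, stood furthest from vehicle. Its signal was 734 after vehicle and 726, 3042, 2214 and 782 after 1, 6, 12 and 24 h of estradiol, and 618 on the array labelled 3 h. It was 4.15-fold higher at 6 h and 3.02-fold at 12 h, and within 1.07-fold of vehicle at 24 h. Emg1, a methyltransferase, had 1184 in vehicle, then 1109, 2646, 2186 and 1581 on the 1, 6, 12 and 24 h arrays, with 1355 on that labelled 3 h, or 2.23-fold at 6 h and 1.85-fold at 12 h.

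Imp4, a protein of the early processing complex, had 511 after vehicle and 506, 702, 647 and 478 after 1, 6, 12 and 24 h of estradiol, and 306 on the array labelled 3 h. The 6 h array was the highest of these, by 1.37-fold over vehicle. Its complex partner Mphosph10 was below the floor after vehicle and at 1 and 24 h, and stood at 256 at 6 h and 324 at 12 h, at least 1.79-fold and at least 2.27-fold higher. Ltv1, a late factor, was 1.40-fold higher at 6 h and 1.82-fold at 12 h, so both genes were highest at 12 h.

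The large-subunit assembly factors formed the biggest group, and 10 of the 12 measured lay 2-fold or more above vehicle at 6 h and 7 at 12 h. Nop2, an RNA methyltransferase, had 432 in vehicle, then 500, 2070, 1186 and 468 on the 1, 6, 12 and 24 h arrays, with 460 on that labelled 3 h. It was 4.80-fold above vehicle at 6 h and 2.75-fold at 12 h, and back near vehicle at 24 h. Gnl3, which encodes the GTPase nucleostemin, had 308 after vehicle and 437, 1379, 1221 and 436 after 1, 6, 12 and 24 h of estradiol, and 368 on the array labelled 3 h. Its 6 and 12 h values, 4.48-fold and 3.96-fold above vehicle, lay closer together than those of Nop2.

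Rrs1 helps to bring the smallest ribosomal RNA into the large subunit. Its signal was 429 in vehicle, then 466, 1918, 1340 and 407 on the 1, 6, 12 and 24 h arrays, with 197 on that labelled 3 h. It was 4.48-fold above vehicle at 6 h, 3.13-fold at 12 h, and 1.05-fold below it at 24 h. Rrp1, the lowest of this group at 6 h, had 1017 after vehicle and 737, 1542, 1156 and 923 after 1, 6, 12 and 24 h of estradiol, and 754 on the array labelled 3 h, or 1.52-fold at 6 h.

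Bop1, Pes1 and Wdr12 encode the PeBoW complex, which is needed for maturation of the large subunit. Bop1 was 2.97-fold above vehicle at 6 h and Pes1 1.60-fold, while Wdr12 was not measurable. The remaining genes of the group ran from 2.37-fold in Nip7 to 3.48-fold in Ftsj3 at 6 h, with Brix1 at 2.49-fold, Ebna1bp2 at 2.79-fold, Grwd1 at 3.32-fold and Ppan at 3.46-fold. The vehicle signals of Ftsj3, 144, and Grwd1, 196, were near the floor of 142.8. Brix1, alone in this group, was higher at 12 h than at 6 h, at 2.89-fold, and its probe set name ends in _r_at, which marks relaxed rules of probe design.

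Ddx21, an RNA helicase of the nucleolus, had the highest fold of the 35 members at 6 h. Its signal was 476 in vehicle, then 448, 2736, 1800 and 551 on the 1, 6, 12 and 24 h arrays, with 477 on that labelled 3 h. It was 5.75-fold above vehicle at 6 h, 3.78-fold at 12 h and 1.16-fold at 24 h. Ncl encodes nucleolin, an abundant RNA-binding protein of the nucleolus, and had 4483 after vehicle and 3358, 12259, 9191 and 4823 after 1, 6, 12 and 24 h of estradiol, and 4498 on the array labelled 3 h, or 2.73-fold at 6 h and 2.05-fold at 12 h.

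Npm1 encodes the chaperone nucleophosmin and had 6140 in vehicle, then 4782, 9213, 8170 and 6946 on the 1, 6, 12 and 24 h arrays, with 3225 on that labelled 3 h. Its log2 ratio of 0.59 at 6 h was close to the 0.58 of Surf6, another nucleolar protein that binds RNA, and neither was counted as 2-fold away at any time.

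Genes of polymerase I transcription had the lowest median of the role groups at 6 and 12 h. Polr1a, the largest subunit, had 296 after vehicle and 277, 589, 400 and 330 after 1, 6, 12 and 24 h of estradiol, and 377 on the array labelled 3 h. It was highest at 6 h, at 1.99-fold, next to the 2-fold line. Polr1c, a subunit that polymerases I and III share, had 1028 in vehicle, then 865, 1135, 891 and 994 on the 1, 6, 12 and 24 h arrays, with 441 on that labelled 3 h. Apart from the array labelled 3 h, the values of this probe set stayed within 1.19-fold of vehicle. Another measured probe set of Polr1c gave 331 after vehicle and 458, 235, 356 and 410 after 1, 6, 12 and 24 h of estradiol, and 219 on the array labelled 3 h, with log2 ratios of 0.47 at 1 h and -0.49 at 6 h, so that it was lower at 6 h where the brighter one was not.

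Polr1d, which pairs with Polr1c, had 524 after vehicle and 362, 806, 524 and 441 after 1, 6, 12 and 24 h of estradiol, and 238 on the array labelled 3 h. The 6 h array alone stood above vehicle, by 1.54-fold. The catalytic subunit gene Polr1b was 1.53-fold higher at 6 h, and Ubtf, which keeps ribosomal DNA open for transcription, 1.36-fold at 6 h and 1.55-fold at 12 h.

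Mybbp1a, a nucleolar protein that binds polymerase I and several transcription factors, was the member of this group past 2-fold. Its signal was 198 in vehicle, then 330, 462, 730 and 316 on the 1, 6, 12 and 24 h arrays, with 247 on that labelled 3 h. It was 2.33-fold above vehicle at 6 h and 3.68-fold at 12 h. Its probe set and that of Polr1b also end in _f_at. Another measured probe set of Mybbp1a gave 247 after vehicle and 98.1, 496, 293 and 104 after 1, 6, 12 and 24 h of estradiol, and 74.5 on the array labelled 3 h, with a log2 ratio of 1.01 at 6 h but 0.25 at 12 h, and was below the floor at 1 and 24 h. Both probe sets were thus higher at 6 h, and they differed at 1, 12 and 24 h. Against the 1 h array, the log2 ratio of the brighter one at 6 h was 0.49, short of 2-fold.

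**Figure D2:**
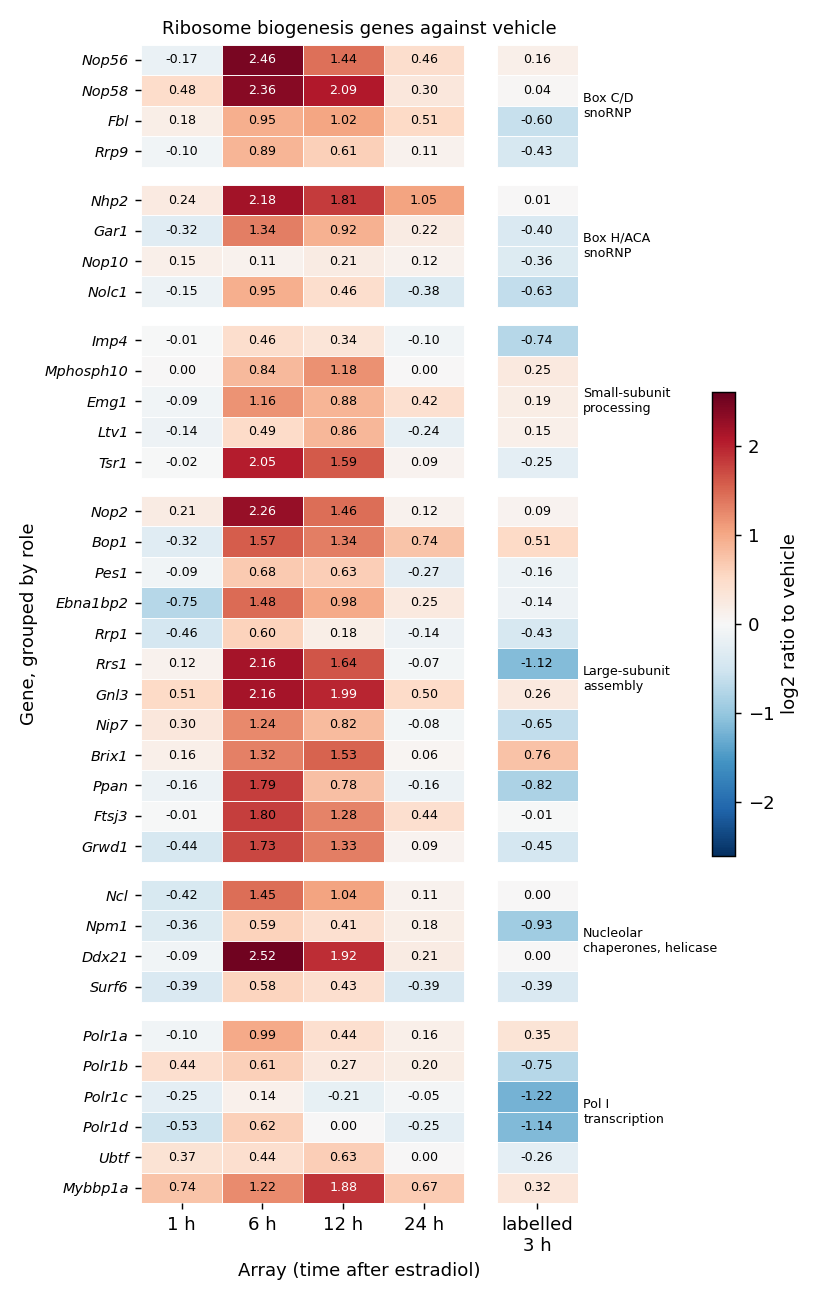
log2 ratio to vehicle of the 35 measured members (lines of cells, by role group) at 1, 6, 12 and 24 h and, apart, on the array labelled 3 h; red is above vehicle and blue below. At 6 h values run from 0.11 to 2.52 and at 12 h from -0.21 to 2.09, while at 1 and 24 h most cells are pale.

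Between role groups the size of the difference varied. At 6 h the median log2 ratio was 1.66 in 4 box C/D genes, 1.65 in 12 large-subunit genes, 1.14 in 4 box H/ACA genes, 1.02 in 4 chaperone and helicase genes, 0.84 in 5 small-subunit genes and 0.62 in 6 polymerase I genes. In the same order, the medians at 12 h were 1.23, 1.31, 0.69, 0.73, 0.88 and 0.35. Joined by function, 8 snoRNP genes had a median of 1.14 at 6 h and 17 processing and assembly genes one of 1.48. The order is a description, since groups are small and their ranges overlap, from 0.14 to 1.22 in the polymerase I genes and from 0.60 to 2.26 in the large-subunit genes.

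**Figure D3:**
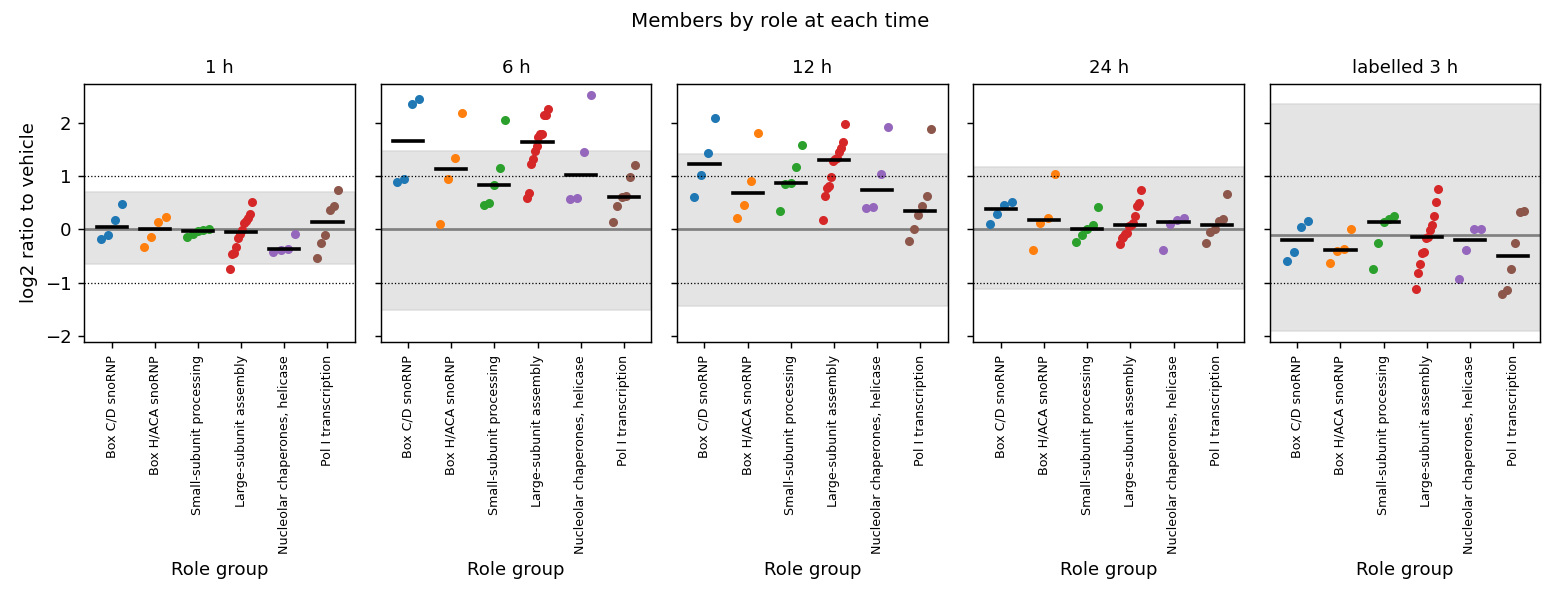
log2 ratio to vehicle of each measured member (points) by role group (x axis), in a panel for each array; black bars are group medians, dotted lines 2-fold, and the grey line and band the median and the span from the 2.5 to the 97.5 percentile of all 6552 measured genes. The polymerase I group has the lowest median at 6 h (0.62) and 12 h (0.35), and at 24 h the point of Nhp2 alone lies past 2-fold.

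The 6 h array was the highest of vehicle, 1, 6, 12 and 24 h in 28 of 35 members (80.0%), and in 20.2% of all measured genes. For the other 7, which were Fbl, Nop10, Mphosph10, Ltv1, Brix1, Ubtf and Mybbp1a, it was the 12 h array. Signal at both 6 and 12 h exceeded that of all 3 other arrays in 31 members (88.6%), and in 19.3% of all measured genes. The exceptions were Nop10, Polr1b, Polr1c and Polr1d.

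Between 6 and 12 h the members' median log2 ratio was -0.35, and Nop56 and Ppan were at least 2-fold lower at 12 h, beside 1.31% of all genes. None was higher by that fold, beside 1.66%. Between 12 and 24 h the median was -0.84, with 11 members at least 2-fold lower and none higher, beside 2.47% and 2.85% of all genes. Nop58 (-1.79), Rrs1 (-1.72) and Ddx21 (-1.71) had the lowest log2 ratios over that interval. Polr1c, at 0.16, was the single measured member with more signal at 24 h than at 12 h.

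On the array labelled 3 h, Rrs1, Polr1c and Polr1d were 2.17-fold, 2.33-fold and 2.20-fold below vehicle, and no member was 2-fold above it. On the other probe set of Polr1c the log2 ratio was -0.60, short of 2-fold. With arrays scaled to the same median, Rrs1 was at -0.99, also short of it. Of all measured genes, 10.6% were higher and 12.3% lower there. The members' median was -0.25, and that of all genes -0.10. The marker differences of that array go with these values, and their part in them was not tested.

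Markers of cell types also differed among the other arrays. The summed signal of the 14 stromal markers was 72282 in vehicle, 41846 at 6 h and 56153 at 12 h, with 12 of them at or above the floor each time and Vim and Mmp2 below it. For the 15 epithelial markers the sums were 16768, 16048 and 16485, and for 8 smooth muscle markers 39007, 40053 and 47055. Those of 9 endothelial markers were 6964, 6719 and 4721, those of 11 leukocyte markers 8131, 5694 and 5743, and those of 8 adipocyte markers 13812, 7520 and 5393. A level sum can hold opposite differences. At 6 h 7 of the 9 endothelial markers were below vehicle, 3 of them by 2-fold or more, beside 8.35% of all genes. Eng, 1 of the 2 above it, had 4073 against 2368 in vehicle. Of 14 measured epithelial markers, 2 were at least 2-fold higher than vehicle and 1 lower at 6 h, beside 6.32% and 8.35% of all genes. The counts at 12 h were also 2 and 1, beside 6.17% and 6.93%. Of 13 measured stromal markers, 6 were at least 2-fold lower and 1, Twist2, higher at 6 h. At 12 h 4 of these 13 were lower and none higher. Of 7 measured adipocyte markers, 2 were lower at 6 h and 6 at 12 h, with none higher. The shares of all genes are those just given. The part of these marker differences in the members' values was not tested.

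Vehicle itself had more signal of pancreatic acinar markers, with 7 of 7 found at or above the floor and a sum of 5248, against 4 of 7 and 1510 to 2697 at 1, 6, 12 and 24 h. With the 1 h array as the reference in its place, 21 members lay 2-fold or more above it at 6 h and 18 at 12 h, and 17 and 15 of these were also past 2-fold against vehicle. None lay 2-fold below the 1 h array at either time. Of all measured genes, 6.65% were higher and 7.30% lower than the 1 h array at 6 h, and 6.47% and 6.09% at 12 h.

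Further genes of the pathway, taken from 4 lists, also had higher signal at 6 h. These lists too were chosen with earlier results of these data known. Of 135 listed, 81 were found and 76 measured. At 6 h 23 of the 76 (30.3%) were at least 2-fold above vehicle and none below, beside 6.32% and 8.35% of all genes. Their median log2 ratio was 0.60. At 12 h 12 (15.8%) were above and none below, beside 6.17% and 6.93%, with a median of 0.34. At 24 h none was 2-fold away, beside 3.37% higher and 3.53% lower of all genes. Bysl, a small-subunit factor, had 369 in vehicle, then 373, 1993, 1072 and 414 on the 1, 6, 12 and 24 h arrays, with 486 on that labelled 3 h, or 5.41-fold at 6 h. Pno1 and Utp4, of the same subunit, were 4.27-fold and 3.18-fold higher, and Nifk, a nucleolar protein that binds Ki-67, 3.02-fold. Nsa2 and Pih1d1 had log2 ratios of -0.80 and -0.64. They were the lowest of these pathway genes whose brighter array of vehicle and 6 h reached the 60th percentile.

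By list, 13 of 30 other large-subunit factors were 2-fold higher at 6 h (median 0.70), as were 8 of 27 small-subunit factors (median 0.90) and 2 of 7 polymerase I factors (median 0.11). None of 12 other snoRNP assembly, exosome and RNase genes was 2-fold away in either direction, and their median was -0.02. The shares of all measured genes at 6 h were 6.32% higher and 8.35% lower. The exosome trims the ends of ribosomal RNA precursors.

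Ribosomal proteins, the parts that these factors put together, stayed nearer to vehicle. Of 24 cytosolic ribosomal protein genes measured, out of 32 found, none was 2-fold away from vehicle at 6 h, and log2 ratios ran from -0.89 to 0.58 around a median of -0.23. At 12 h the median was -0.39 with 1 gene 2-fold lower and none higher, beside 6.93% and 6.17% of all genes. The shares of all genes at 6 h were 8.35% and 6.32% in the same order. Many genes of this family have near-identical pseudogene copies, so their probe sets are uncertain.

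**Figure D4:**
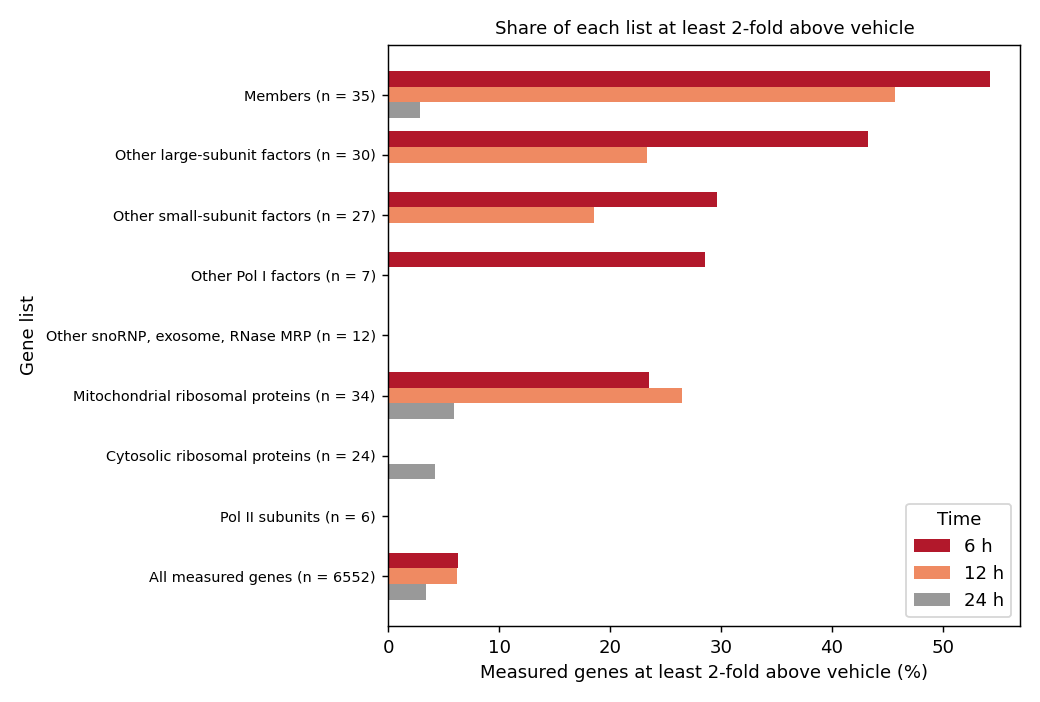
Percent of measured genes at least 2-fold above vehicle (x axis, from 0) at 6, 12 and 24 h in the members, other lists of the pathway, ribosomal protein genes, polymerase II subunits and all 6552 measured genes. The bars of the members reach 54.3% at 6 h and 45.7% at 12 h, those of all genes 6.32% and 6.17%, and cytosolic ribosomal proteins have no bar at either time.

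Myc is known to drive this pathway, and its own signal was 215 after vehicle and 430, 426, 362 and 275 after 1, 6, 12 and 24 h of estradiol, and 153 on the array labelled 3 h. Its log2 ratio to vehicle was 1.00 at 1 h and 0.99 at 6 h, while no member was 2-fold higher at 1 h. Mycn, a relative of Myc, had 231 in vehicle, 381 at 1 h and 152 at 6 h, and was below the floor at 12 h. Max, the partner of both, had 740 in vehicle, then 607, 725, 749 and 400 on the 1, 6, 12 and 24 h arrays, with 673 on that labelled 3 h.

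Of 5 genes of the network that oppose Myc, Mxd4 and Mxi1 were at least 2-fold below vehicle at 6 h. At 12 h Mxd4, Mxi1 and Mnt were. Of all measured genes, 8.35% were lower by that fold at 6 h and 6.93% at 12 h. Mxd4 had 1039 in vehicle, then 859, 170, 398 and 758 on the 1, 6, 12 and 24 h arrays, with 2158 on that labelled 3 h, and was 6.12-fold lower at 6 h and 2.61-fold at 12 h. Mxi1 was at least 6.34-fold lower at 6 h and 3.79-fold at 12 h, and Mnt 1.85-fold and 2.04-fold. Mxd4 and Mxi1 were thus lowest of the time course on the 6 h array, where most of the ribosome biogenesis genes were highest. What part the Myc network had in the members' values was not tested. Mxd1 was below the floor on all arrays but that labelled 3 h, and Mxd3 was below it in vehicle and at 1 and 12 h, at it at 6 h, and at least 1.39-fold higher at 24 h, with 199.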

How the data were processed

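RNA of pooled uteri was read on 6 Affymetrix arrays. The deposited values are MAS5 signal intensity on a linear scale, per the submitters' processing notes; the MAS5 version and detection calls are not given in the sources used here. Having 1 array per group limits the precision, and nothing was tested.

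With Python 3.11.15, numpy 2.4.6 and pandas 2.3.3, 66 of 12488 probe sets (controls) were left out and arrays were scaled to the same trimmed mean (2% off each end). Values under the floor were raised to it before log2 was taken. Probe sets with 1 symbol (10833) were named, 396 with several and 1193 with none were not, and 10817 of the named ones matched RefSeq (GRCm38.p6) by gene identifier. Folds against a value below the floor are lower bounds ("at least"), and a gene below it on both arrays has a log2 ratio of 0. The calculation was tested on simulated data. Figures were drawn with matplotlib 3.10.9.

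Members and lists were chosen with earlier results of these data known. Signal on every array is given for the highest pair and the lowest member of each role group at 6 h (brighter array at or above the 60th percentile, 352.7), for members 2-fold lower and, outside this rule, for Fbl, chosen after its values were seen. Of other pathway genes at or above the same percentile, the 4 highest and 2 lowest at 6 h are named. A planned description of protein sequences was not made here. Alternatives were scaling, floor, probe set, reference array and fold.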

Additional observations from a re-analysis of the deposited data

Results flagged for a closer look

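Rrs1 was past 2-fold on both sides of vehicle. Its log2 ratio was 2.16 at 6 h and 1.64 at 12 h, but -1.12 on the array labelled 3 h, on which most epithelial markers were below the floor. With arrays scaled to the same median the last value was -0.99, short of 2-fold. Raising the floor to 352.7, the 60th percentile, gave -0.28. That value is only a bound, since the signal of 197 was raised to this floor and vehicle had 429. It could not have reached 2-fold, so it does not bear on the call. The difference was not tested, since each time is a single array.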

How the results depend on the processing

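No paired analysis was possible because every group has 1 array, and for the same reason no replicate could be left out. The alternatives with the 1 h array as reference and without the array labelled 3 h were chosen after seeing the data. With 1.5-fold as the line, 1 member was higher and 1 lower at 1 h, 29 were higher at 6 h, 25 at 12 h and 3 at 24 h, and 1 was higher and 10 lower on the array labelled 3 h. Of all measured genes, 4.08% were higher and 3.30% lower at 1 h by 1.5-fold, 14.4% higher at 6 h, 14.9% at 12 h and 9.84% at 24 h, and 18.7% higher and 1705 of 6552 genes lower on the array labelled 3 h. With 3-fold, 11 were higher at 6 h, 7 at 12 h and 0 at 24 h, and 0 were lower on the array labelled 3 h, beside 1.80%, 1.72%, 1.16% and 4.24% of all genes. A floor at the 20th percentile gave 2 of 36 members higher at 24 h, beside 5.79% of all genes. A floor at the 60th gave 1 of 33 lower on the array labelled 3 h, beside 9.17%. Rrs1 and Polr1d could not be called lower there, since their vehicle signals, 429 and 524, were less than 2-fold above 352.7. With the mean of vehicle and 1 h as reference, 0 members were higher at 24 h, as Nhp2 fell short, beside 3.17% of all genes. With each gene at the median over its probe sets, 31 members were measured. Of these, 13 were higher at 6 h, 10 at 12 h, and 1 was lower on the array labelled 3 h. The shares of all genes were 5.89%, 5.76% and 10.7%. Of the 14 other probe sets of 12 members, 12 lay below the floor on every array, so that this setting mixes measured and unmeasured probe sets. At 2-fold, the other settings gave 16 to 22 members at 6 h and 13 to 18 at 12 h. Of all genes they gave 5.62% to 7.64% at 6 h and 5.32% to 7.63% at 12 h. No median of the members or of a role group shifted by more than 1.5-fold. Scaling to the same median and quantile normalization kept all 19 members of 6 h and called 22 and 21, beside 7.57% and 6.60% of all genes. Signal near the floor limits what can be read for Wdr12 and Mphosph10, and also for Ftsj3, Grwd1, Mybbp1a and Surf6. In vehicle, Ftsj3 had 144, Grwd1 196 and Mybbp1a 198, and Surf6 was below the floor at 1 and 24 h. Raising the floor to 352.7, the 60th percentile, left Ftsj3, Grwd1 and Mybbp1a short of 2-fold at 6 h. Their 6 h signals of 500, 649 and 462 could not have been 2-fold above that floor.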

Other observations

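Subunits of the other RNA polymerases can be set beside the ribosome biogenesis genes. None of 6 measured polymerase II subunits was 2-fold away from vehicle at 6 or 12 h, and their medians were -0.01 and 0.11. Of 4 subunits shared by all 3 polymerases, Polr2l was 2.76-fold higher at 6 h and 3.17-fold at 12 h, from a signal of 736 in vehicle to 2033 and 2329. Polr2h, Polr2e and Polr2f were under 2-fold at both times. Of 3 polymerase III subunits, Polr3k was 2.07-fold and 2.89-fold higher, with 157, 325 and 455 in vehicle and at 6 and 12 h.

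Genes of the mitochondrial ribosome, which is built outside the nucleolus, lay between the biogenesis factors and the cytosolic ribosomal proteins at 6 h. Of 34 measured, 8 (23.5%) were at least 2-fold above vehicle at 6 h and 9 (26.5%) at 12 h, with none below, and the medians were 0.32 and 0.56. At 24 h 2 were 2-fold higher and the median was 0.32, while that of the biogenesis members was 0.11.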
